A study of Mus musculus with 10 samples.

Results

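The genes described here are 10 targets of the unfolded protein response of the endoplasmic reticulum (ER): Hspa5, Hsp90b1, Xbp1, Pdia4, Pdia6, Dnajb9, Herpud1, Sdf2l1, Manf and Creld2. They were taken by gene name from a table of 57825 mouse genes, in which all 10 were listed, on chromosomes 2, 10, 11, 6, 12, 12, 8, 16, 9 and 15 in this order, and all 10 passed the filter on low values. Proteins that are secreted or inserted into membranes fold in the ER, and unfolded protein there activates the sensors IRE1 (gene Ern1), ATF6 and PERK (gene Eif2ak3). IRE1 splices Xbp1 RNA and ATF6 is cleaved in the Golgi, and the transcription factors made in this way raise chaperones, disulfide isomerases and degradation factors, whereas PERK slows translation and favours Atf4. T cells enlarge their secretory pathway after activation, when cytokines and cytotoxic granule proteins are made.

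RNA sequencing was performed on CD8+ T cells after co-culture with 4T1 cells, an established mouse mammary carcinoma line, in 5 samples without sodium acetate (CD8+4T1) and 5 samples with it (CD8+4T1+NaAc). The CD8+ T cells came from spleens of female Balb/c mice and were activated in both groups with anti-CD3, anti-CD28 and IL-2 for 12 h. According to the methods, sodium acetate was given at 5 mM for 24 h before 48 h of co-culture, and the labels give day 3. RNA was taken from purified CD8+ T cells, but nothing states that the replicates came from separate mice or cultures, so the p-values measure the spread between these samples, which may be technical. No sample without tumor cells was analysed here, so the comparison concerns sodium acetate under co-culture.

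Expression is given as FPKM, which divides the fragments of a gene by its length and by the fragments of the sample, and the scaling refers to 16306447 to 18853726 fragments per sample. The listed genes held 95.5% to 97.9% of these fragments in CD8+4T1 and 89.8% to 92.1% in CD8+4T1+NaAc, and these ranges do not overlap. The summed FPKM of all listed genes was 310965 to 335151 in CD8+4T1 and 282995 to 295928 in CD8+4T1+NaAc. For these reasons differences are given on the FPKM as listed. Those of named genes whose call changed are also given after rescaling every sample to the same total of FPKM. Such a total also depends on gene lengths, so the rescaling does not only undo the difference in share. The listed FPKM gave a median log2 fold change of -0.02 over all 15710 genes tested, and the rescaled values gave 0.15. All 12 T cell markers were detected, with a summed level of 840 to 943 FPKM in CD8+4T1 and 741 to 914 FPKM in CD8+4T1+NaAc. Of these 12, 1 rose, Zap70 (log2 fold change 0.27), and 6 fell, among them Cd3d (-0.54) and Cd3g (-0.53). Cd8a (-0.04), Cd8b1 (0.17) and Trac (0.26) did not pass. After rescaling to the same total 5 rose and 4 fell, and Cd8a (0.14), Cd8b1 (0.34) and Trac (0.44) were among those that rose. The 20 epithelial and 4T1 cell markers summed to 25.0 to 37.6 FPKM in CD8+4T1 and 129 to 282 FPKM in CD8+4T1+NaAc, none of them was at 0 in every sample, and 8 of the 12 that could be tested rose. The 12 B and plasma cell markers summed to 19.7 to 21.7 FPKM and 30.6 to 36.4 FPKM, and the 10 macrophage and dendritic cell markers to 26.4 to 35.9 FPKM and 27.2 to 31.1 FPKM. Of the 6 B and plasma cell markers tested, 2 rose, Sdc1 from a mean of 5.05 to 12.5 FPKM and Igkc from 0.134 to 1.61 FPKM, and 5 rose after rescaling to the same total. Jchain and Mzb1 averaged at most 0.118 FPKM in either group, and Tnfrsf17 was at 0 in all samples. 4T1 and plasma cells have an ER of their own, and their part in the levels below was not tested. According to the methods, the spleen cells went through a CD8+ T cell isolation kit before culture. In such bulk samples, fewer cells of a type and less RNA per cell cannot be told apart.

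All 10 members were well measured, with at least 250 fragments behind each value. Hspa5, which encodes the ER chaperone BiP, was the most abundant member at a mean of 213 FPKM over the 10 samples and ranked 180th of the 15710 genes tested. Pdia6 and Hsp90b1 followed at 118 FPKM and 117 FPKM, and their order was not fixed, since Pdia6 was the higher in 4 of 10 samples. Sdf2l1, Manf, Pdia4, Creld2, Xbp1 and Herpud1 lay between 59.3 FPKM and 26.2 FPKM, each overlapping its neighbour in range. Dnajb9 was the lowest member in all 10 samples, at a mean of 8.27 FPKM. The 10 members summed to 709 ± 15.4 FPKM in CD8+4T1 and 671 ± 13.9 FPKM in CD8+4T1+NaAc (SD, n = 5). As a share of the fragments in listed genes, they took 0.249% ± 0.00431 and 0.254% ± 0.00609 (SD, n = 5). The summed level and the share therefore lay on opposite sides, and the composition of the sum moved more than its size. Hspa5 made up 28.3% ± 0.543 of the summed FPKM in CD8+4T1 and 33.5% ± 2.99 in CD8+4T1+NaAc, and Manf made up 8.44% ± 0.256 and 5.94% ± 0.833 (SD, n = 5).

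**Figure D1:**
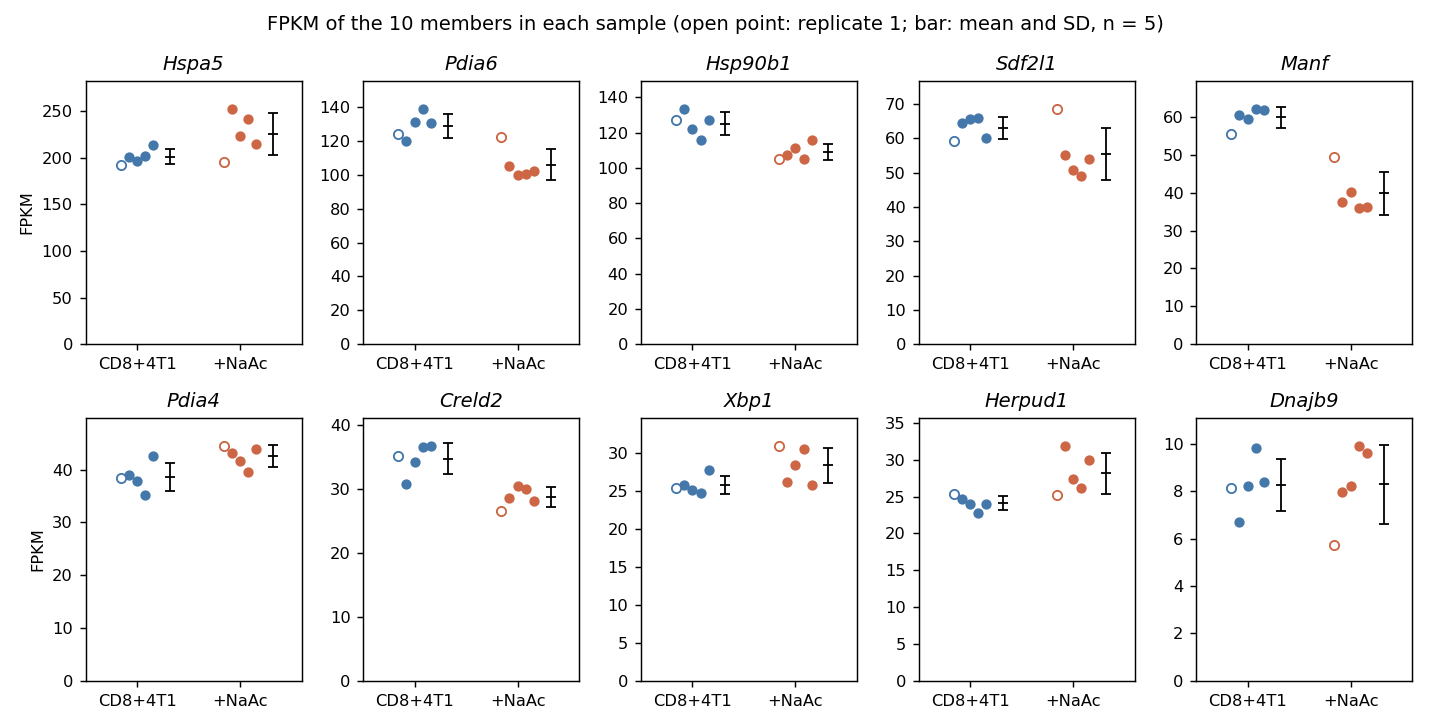
FPKM of each member in every sample, with 1 panel per gene and its axis starting at 0, for CD8+4T1 (blue) and CD8+4T1+NaAc (orange, labelled +NaAc). Points are samples, the open point is replicate 1, and bars show the mean and SD (n = 5); Manf and Creld2 are lower in every CD8+4T1+NaAc sample, whereas the ranges of Hspa5 overlap.

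Some of the members carry a promoter element of the ER stress response. The members were chosen as targets of this response, so the matches are described and not taken as a separate result. RefSeq promoters (GRCm38.p6, 250 bases before to 50 after the transcript start) were matched for 9 of the 10 members, all but Manf. The ER stress response element, here searched as CCAAT, any 9 bases and CCACG on both strands, occurred in 0.119% of 32851 promoters and in those of 4 members, Hspa5, Hsp90b1, Pdia6 and Creld2. Its variant ERSE-II, here ATTGG, any 1 base and CCACG, occurred in 0.0365% of promoters and in that of 1 member, Herpud1. These exact letters were not in the windows of Xbp1, Pdia4, Dnajb9 and Sdf2l1. The 250 bases before the start of the 5 genes are shown 5′ to 3′ on the strand of each gene, because these genes carry the same kind of element and lay on both sides of 0 in the comparison. Capitals mark the elements, and that of Creld2 and the one nearer the start in Hsp90b1 read as the element on the opposite strand.
Hspa5: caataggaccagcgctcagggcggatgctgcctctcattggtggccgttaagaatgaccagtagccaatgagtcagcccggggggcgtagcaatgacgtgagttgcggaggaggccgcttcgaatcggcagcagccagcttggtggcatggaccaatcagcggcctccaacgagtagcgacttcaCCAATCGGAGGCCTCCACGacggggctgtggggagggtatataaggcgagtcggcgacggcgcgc
Hsp90b1: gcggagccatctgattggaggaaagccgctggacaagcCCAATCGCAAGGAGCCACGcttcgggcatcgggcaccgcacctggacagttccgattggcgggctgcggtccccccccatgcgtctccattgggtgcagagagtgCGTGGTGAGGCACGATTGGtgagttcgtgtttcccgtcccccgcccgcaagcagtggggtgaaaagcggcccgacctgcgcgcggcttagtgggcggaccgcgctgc
Pdia6: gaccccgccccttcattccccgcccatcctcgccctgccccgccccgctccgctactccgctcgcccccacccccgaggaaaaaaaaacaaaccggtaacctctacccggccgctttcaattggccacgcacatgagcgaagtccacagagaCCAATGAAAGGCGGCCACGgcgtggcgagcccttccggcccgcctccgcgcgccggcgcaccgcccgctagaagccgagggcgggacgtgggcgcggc
Creld2: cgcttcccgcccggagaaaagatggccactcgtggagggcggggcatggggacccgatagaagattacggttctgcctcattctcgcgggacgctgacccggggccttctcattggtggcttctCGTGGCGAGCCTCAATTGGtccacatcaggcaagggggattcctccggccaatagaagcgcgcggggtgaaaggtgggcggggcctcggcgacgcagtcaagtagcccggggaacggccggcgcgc
Herpud1: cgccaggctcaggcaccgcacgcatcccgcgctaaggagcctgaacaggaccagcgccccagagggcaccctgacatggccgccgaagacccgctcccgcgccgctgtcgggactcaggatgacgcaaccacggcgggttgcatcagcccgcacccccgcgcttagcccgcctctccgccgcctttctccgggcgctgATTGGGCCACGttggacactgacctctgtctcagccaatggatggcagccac

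In the Hspa5 promoter (chr2:34771840-34772089, plus strand) the element began 65 bases before the start. The Hsp90b1 promoter (chr10:86705445-86705694, minus strand) held 2 elements, from 212 and from 107 bases before the start. The elements of Pdia6 (chr12:17266339-17266588, plus strand) and Creld2 (chr15:88819396-88819645, plus strand) began 98 and 126 bases before it, and that of Herpud1 (chr8:94386179-94386428, plus strand) 52 bases before it. These positions belong to GRCm38.p6 and not to the build of the expression table. A match is a description of the sequence and not of a bound factor. In the comparison with sodium acetate, the listed level of Herpud1 rose, those of Hsp90b1, Pdia6 and Creld2 fell, and Hspa5 did not pass the test. Outside the members, 11 further genes with this ER stress element were tested, of which 3 rose and 2 fell, with a median log2 fold change of 0.01, and 8 with ERSE-II, of which 1 rose and 2 fell, with a median of -0.14. Over all genes tested, 17.6% rose and 19% fell. After rescaling to the same total, 4 of the 11 rose and 0 fell, with a median of 0.19, and 2 of the 8 rose and 1 fell, with a median of 0.04, where 31.2% of all genes rose and 8.83% fell.

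To address whether sodium acetate moved the ER stress targets of CD8+ T cells under co-culture, each member was compared between the groups by limma on log2(FPKM + 0.1), with adjusted p-values over all 15710 genes tested. On the FPKM as listed, 5 of the 10 members passed at an adjusted p under 0.05, beside 36.5% of all genes tested. Only Herpud1 rose, beside 17.6% of all genes, and Hsp90b1, Pdia6, Manf and Creld2 fell, beside 19% of all genes. The median log2 fold change of the members was -0.10. It was -0.02 over all genes tested and -0.08 over those that averaged 5 FPKM or more, as all members did. With an absolute log2 fold change over 1, 0 of them passed, beside 6.47% of all genes. The groups did not overlap for 3 of the 10 members, Hsp90b1, Manf and Creld2, beside 26.4% of all genes. The counts of 1 higher and of 3 separated members were close to these backgrounds and that of 4 lower members was above its own. These shares are over genes from 0.5 FPKM up and were not taken at the level of the members. No test was made of these counts. After rescaling to the same total, Hspa5, Xbp1, Pdia4 and Herpud1 rose, beside 31.2% of all genes, and only Manf fell, beside 8.83%. Scaling to the T cell markers gave the same 4 higher and 1 lower members, beside 25.2% and 8.78% of all genes. Herpud1 above and Manf below were the calls that these 3 scalings shared. Median-ratio scaling, by the median ratio over genes in each sample, changed no member call of the listed FPKM. Hsp90b1, Pdia6 and Creld2 therefore also fell under it. Voom on the recovered fragments kept those calls and added Hspa5 as higher.

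**Figure D2:**
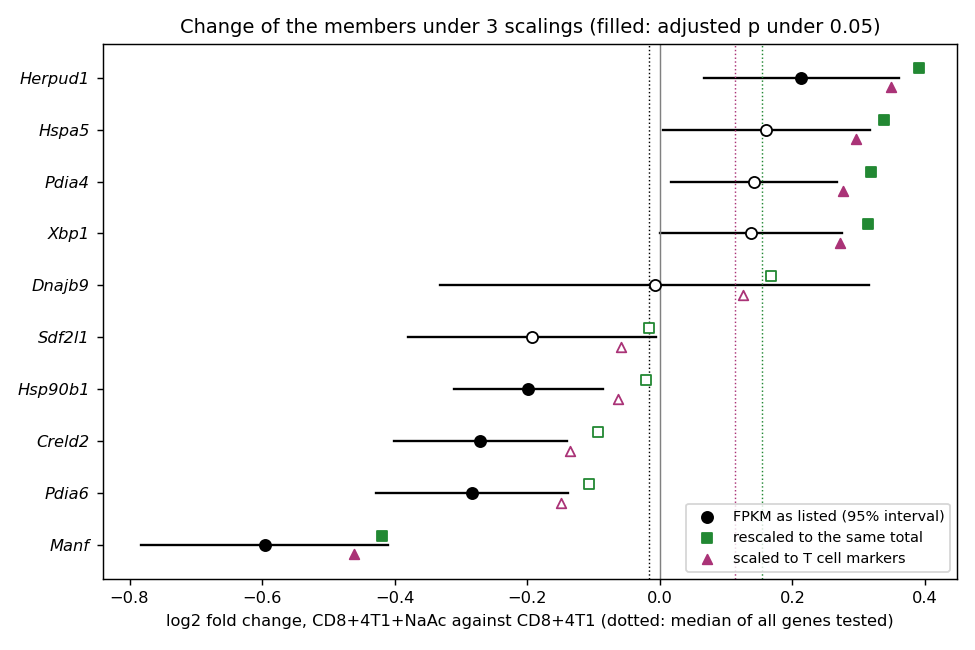
Log2 fold change of each member, CD8+4T1+NaAc against CD8+4T1, on the FPKM as listed (circles with 95% intervals), rescaled to the same total (squares) and scaled to the T cell markers (triangles). Filled symbols have an adjusted p under 0.05 and dotted lines mark the median of all genes tested under each scaling; Manf lies below 0 and Herpud1 above 0 throughout, and apart from Dnajb9 and Sdf2l1, which do not pass under any of the 3, the other members change their call.

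Hspa5 encodes BiP, which binds nascent chains and holds the sensors inactive. In CD8+4T1 its level was 192.3, 200.1, 195.9, 202.0 and 213.6 FPKM in replicates 1 to 5. In CD8+4T1+NaAc it was 194.9, 251.8, 223.6, 241.0 and 214.6 FPKM. Replicates 2 to 5 of CD8+4T1+NaAc were above every CD8+4T1 sample, and replicate 1 was among them. The log2 fold change was 0.16 ± 0.07 (SE) with a limma adjusted p of 0.0995, and 0.34 with an adjusted p of 0.00188 after rescaling to the same total. Without replicate 1 of CD8+4T1+NaAc the listed value was 0.21 with a limma adjusted p of 0.0113. The 3 samples with the highest Hspa5 were also those with the highest summed epithelial and 4T1 cell markers, at 282, 227 and 188 FPKM in replicates 2, 4 and 3, and the part of these cells in the level was not tested.

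Hsp90b1 encodes GRP94, the ER form of HSP90, which folds integrins and Toll-like receptors. Its level was 127.0, 133.2, 122.1, 115.6 and 127.1 FPKM in CD8+4T1, and 105.0, 107.5, 111.3, 105.1 and 115.5 FPKM in CD8+4T1+NaAc. The groups did not overlap, although the lowest CD8+4T1 sample and the highest CD8+4T1+NaAc sample nearly met. The log2 fold change was -0.20 ± 0.05 (SE) with a limma adjusted p of 0.0111, and -0.02 with an adjusted p of 0.803 after rescaling to the same total. After median-ratio scaling it was -0.215 with a limma adjusted p of 0.00769. The fall of Hsp90b1 thus depended on the scaling used. The listed Hsp90b1 gene overlaps Gm15344, a noncoding RNA on the same strand at a mean of 6.42 FPKM, so a small part of the fragments may have been divided between them.

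Sdf2l1, a partner of ER DnaJ proteins that assists BiP, was at 59.2, 64.6, 65.5, 65.9 and 59.9 FPKM in CD8+4T1. In CD8+4T1+NaAc it was at 68.5, 55.0, 50.7, 49.0 and 54.1 FPKM. Replicate 1 was the highest of all 10 samples and the other 4 were the lowest of all 10. The log2 fold change was -0.19 ± 0.08 (SE) with a limma adjusted p of 0.0992, and without replicate 1 of CD8+4T1+NaAc it was -0.27 with an adjusted p of 0.00199. After rescaling to the same total it was -0.02 with an adjusted p of 0.903, and -0.11 with an adjusted p of 0.0775 when replicate 1 of both groups was also left out. With all 10 samples kept but weighted, the listed value was -0.29 with a limma adjusted p of 0.000988. A call for Sdf2l1 thus depended on the scaling and on whether samples were left out or weighted. Dnajb9 (ERdj4), a DnaJ co-chaperone of BiP, was at 6.7 to 9.8 FPKM in CD8+4T1 and at 5.7 to 9.9 FPKM in CD8+4T1+NaAc. The Dnajb9 range of CD8+4T1+NaAc covered that of CD8+4T1. Its log2 fold change was -0.01 ± 0.15 (SE), with a 95% interval from -0.33 to 0.32 and a limma adjusted p of 0.974.

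Pdia4 and Pdia6 are protein disulfide isomerases, which form and reshuffle the disulfide bonds of proteins in the ER. Pdia6 was at 124.2, 119.8, 131.5, 138.8 and 130.5 FPKM in CD8+4T1, and at 122.2, 105.1, 100.2, 100.6 and 102.5 FPKM in CD8+4T1+NaAc. Replicates 2 to 5 of CD8+4T1+NaAc were below every CD8+4T1 sample, and replicate 1 was within their range. Its log2 fold change was -0.28 ± 0.07 (SE) with a limma adjusted p of 0.00639, and -0.11 with an adjusted p of 0.239 after rescaling to the same total. When replicate 1 of both groups was also left out, the rescaled value was -0.16 with a limma adjusted p of 0.0143. Pdia4 was at 35.2 to 42.6 FPKM in CD8+4T1 and at 39.5 to 44.5 FPKM in CD8+4T1+NaAc, with overlapping groups. Its log2 fold change was 0.14 ± 0.06 (SE) with a limma adjusted p of 0.0740, and 0.32 with an adjusted p of 0.00225 after rescaling to the same total. The point estimates of these related enzymes thus lay on opposite sides of 0.

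Xbp1 encodes the transcription factor whose RNA is spliced by IRE1, and the table gives its total level without telling the spliced from the unspliced form. It was at 25.3, 25.7, 25.0, 24.6 and 27.7 FPKM in CD8+4T1, and at 30.9, 26.2, 28.3, 30.4 and 25.7 FPKM in CD8+4T1+NaAc. Replicates 1, 3 and 4 of CD8+4T1+NaAc were above every CD8+4T1 sample, and replicates 2 and 5 were within their range. The log2 fold change was 0.14 ± 0.06 (SE) with a limma adjusted p of 0.109, and 0.31 with an adjusted p of 0.00532 after rescaling to the same total.

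Herpud1, a membrane protein that recruits the ubiquitin ligase of ER-associated degradation, was at 25.37, 24.62, 23.999, 22.84 and 24.05 FPKM in CD8+4T1. In CD8+4T1+NaAc it was at 25.19, 31.87, 27.45, 26.20 and 29.97 FPKM. Replicates 2 to 5 of CD8+4T1+NaAc were above every CD8+4T1 sample, and replicate 1 was just under the highest of them. Herpud1 rose by a log2 fold change of 0.21 ± 0.07 (SE) with a limma adjusted p of 0.0275, and by 0.39 with an adjusted p of 0.000984 after rescaling to the same total. On the listed values this call held in 5 of the 10 fits made with 1 sample removed, and the adjusted p did not exceed 0.0649 in the others.

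Manf and Creld2 encode small proteins of the ER that are also secreted when ER calcium or folding is disturbed. Manf was at 55.4, 60.6, 59.4, 62.1 and 61.9 FPKM in CD8+4T1, and at 49.3, 37.6, 40.3, 35.9 and 36.1 FPKM in CD8+4T1+NaAc. Every CD8+4T1+NaAc sample was below every CD8+4T1 sample, and replicate 1 was the closest to them. The mean of Manf fell by 33.5%, with a log2 fold change of -0.60 ± 0.08 (SE) and a limma adjusted p of 0.000354, the largest change in either direction among the 10 members. It was -0.42 with an adjusted p of 0.00304 after rescaling to the same total. The listed Manf gene (chromosome 9, 106715511 to 106769178, minus strand, in a build that the sources used here do not name) spans 53668 bases around Rbm15b on the same strand, so fragments of the 2 genes may have been divided between them. Rbm15b was at a mean of 10.4 FPKM with a log2 fold change of 0.00. Dcaf1 on the opposite strand overlaps the listed Manf gene as well, and the strand setting is not given. Dcaf1 was at a mean of 7.75 FPKM with a log2 fold change of -0.11, which did not pass (limma adjusted p = 0.165). Creld2 was at 35.2, 30.8, 34.2, 36.5 and 36.7 FPKM in CD8+4T1, and at 26.6, 28.5, 30.4, 29.9 and 28.1 FPKM in CD8+4T1+NaAc. The groups of Creld2 did not overlap, with a log2 fold change of -0.27 ± 0.06 (SE) and a limma adjusted p of 0.00467, and -0.09 with an adjusted p of 0.259 after rescaling to the same total.

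Since a scaling multiplies all genes of a sample alike, it cancels in the ratio of a member to Hspa5 within that sample. The 9 ratios to Hspa5 were compared by a two-sided exact permutation test over the samples, in which 5 against 5 samples allow no p below 0.00794, with adjustment over the 9 ratios. The ratio of Manf to Hspa5 was 0.298 in CD8+4T1 and 0.176 in CD8+4T1+NaAc, a log2 difference of -0.76 with non-overlapping groups (exact permutation adjusted p = 0.0238). Creld2 went from 0.172 to 0.128 of Hspa5, a log2 difference of -0.43 with the same adjusted p in the exact permutation test, and without overlap. Hsp90b1 went from 0.622 to 0.485 of Hspa5, a log2 difference of -0.36 with again the same adjusted p in the exact permutation test, and without overlap. Thus in these samples Manf, Creld2 and Hsp90b1 were lower relative to Hspa5, whatever the scaling.

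The ratios of Pdia6 and Sdf2l1 to Hspa5 had log2 differences of -0.44 and -0.35, with adjusted p-values of 0.0536 and 0.1 in the exact permutation test. Both overlapped between the groups through replicate 1 of CD8+4T1+NaAc, and without this sample both passed, at -0.55 and -0.48 with an adjusted p of 0.0286 in the exact permutation test. For Xbp1, Pdia4, Herpud1 and Dnajb9, the log2 differences from Hspa5 were -0.02, -0.02, 0.05 and -0.17, none of which passed the test. With Hsp90b1 as the reference in place of Hspa5, 5 of 9 ratios differed, those of Hspa5, Xbp1, Pdia4 and Herpud1 upward and that of Manf downward. These are changes of the ratio between the groups and not levels, since of these 5 genes only Hspa5 was more abundant than Hsp90b1.

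**Figure D3:**
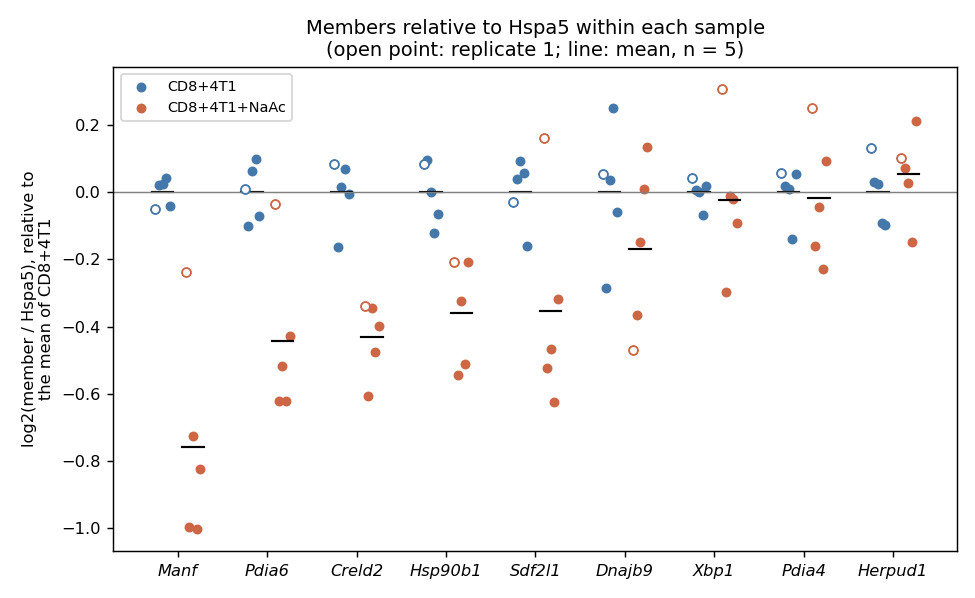
Log2 ratio of each of 9 members to Hspa5 within each sample, relative to the mean of CD8+4T1, for CD8+4T1 (blue) and CD8+4T1+NaAc (orange). Points are samples, the open point is replicate 1 and lines are means (n = 5); Manf, Creld2 and Hsp90b1 are lower in all 5 CD8+4T1+NaAc samples, and replicate 1 lies within the CD8+4T1 range for Pdia6.

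Within the groups the members did not move as one. Over the 10 samples, the deviations from the group means had a median Pearson r of -0.14 over the 45 pairs of members, with 19 pairs above 0, 8 above 0.5 and 9 below -0.5. In CD8+4T1+NaAc, replicate 1 was the highest of its group for Xbp1, Pdia4, Pdia6, Sdf2l1 and Manf and the lowest for Hspa5, Hsp90b1, Dnajb9, Herpud1 and Creld2. This sample also had the fewest genes above 0, at 20233, and the lowest summed T cell markers, at 741 FPKM. Among 7790 other genes that averaged 5 FPKM or more, the deviations most like the mean standardized deviation of the members were those of Sfmbt1 (r = 0.90), Ostc, Gm4735, Api5, Eif2ak2, Hmgn2-ps, Acat1, Atxn1l, Slc16a3 and Lig1 (r = 0.82) over the 10 samples, of which Gm4735 is listed as a pseudogene of Eno1 and Hmgn2-ps is named as a pseudogene, so that their reads may belong to the parent genes. These correlations describe 10 samples that share depth and composition, and no test was attached to them.

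The related genes were read from lists that, like the members, were drawn up with earlier results of these data known. Their counts stand beside 17.6% of all genes tested higher and 19% lower on the listed FPKM, and 31.2% higher and 8.83% lower after rescaling to the same total, which moves all genes upward alike. No test was made of a list. Of the 6 sensors and proximal factors, 2 rose and 0 fell by limma. Ern1, which encodes IRE1, was at 7.2 to 8.4 FPKM in CD8+4T1 and at 10.6 to 14.0 FPKM in CD8+4T1+NaAc, so that the groups did not overlap. Its log2 fold change was 0.61 ± 0.08 (SE) with a limma adjusted p of 0.000171. Mbtps1, the site-1 protease that cleaves ATF6, had a log2 fold change of 0.33 with a limma adjusted p of 0.0205. Eif2ak3 (PERK) and Atf6 had log2 fold changes of 0.09 and -0.02, which did not pass, and Eif2ak3 passed after rescaling to the same total, at 0.26 with a limma adjusted p of 0.0155. The ranges of Ern1 thus separated, while those of its substrate Xbp1 overlapped.

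Of 20 other ER chaperones and folding enzymes tested, 5 rose and 9 fell, with a median log2 fold change of -0.13. Those that rose were Fkbp11 (0.98), Pdia5 (0.77), Txndc5 (0.66), Ero1b (0.53) and Uggt1 (0.24), which include a prolyl isomerase, disulfide isomerases, an oxidase of these and the glucosyltransferase that senses misfolded glycoproteins. Fkbp2 (-0.76), Ero1a (-0.56), Cnpy2 (-0.52) and Ppib (-0.27) were the largest falls, with Ero1a the paralog of Ero1b. Fkbp11 was at 2.09 to 2.80 FPKM in CD8+4T1 and at 3.59 to 6.35 FPKM in CD8+4T1+NaAc, without overlap. The lectin chaperone Canx (-0.18), the disulfide isomerase Pdia3 (-0.19) and the BiP co-chaperone Dnajb11 (-0.19) also fell. Calr (-0.07), P4hb (-0.20), Hyou1 (-0.03) and Dnajc3 (0.01) did not pass the test. After rescaling to the same total, Canx (-0.01), Pdia3 (-0.01), Dnajb11 (-0.02) and Ppib (-0.09) no longer passed. The list then held 6 higher and 3 lower genes.

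Of 19 genes of ER-associated degradation tested, 1 rose (Edem2, 0.15) and 5 fell, among them Ubxn4 (-0.48), Ufd1 (-0.25), Ube2g2 (-0.25) and Vcp (-0.18), which pull or ubiquitinate proteins on the cytosolic side. Sel1l (-0.16), Syvn1 (0.18) and Edem1 (-0.17), the core of the ligase and a mannose-trimming protein, did not pass. After rescaling, 6 rose, among them Syvn1 (0.35), and only Ubxn4 fell, with Ufd1 (-0.08), Ube2g2 (-0.07) and Vcp (-0.0016) no longer passing. Of 22 genes of translocation, signal peptide cleavage and N-glycosylation, 0 rose and 13 fell, led by Ostc (-0.70), Sec61b (-0.65), Sec11a (-0.58) and Srprb (-0.49), and after rescaling 5 rose and 6 fell. Of 15 genes of ER to Golgi transport, 5 rose, among them Sec24d (1.01), Kdelr3 (0.59), Sec31a (0.35) and Kdelr2 (0.32), and 3 fell, Tmed9 (-0.47), Tmed2 (-0.28) and Lman1 (-0.18). KDEL receptors return BiP and GRP94 to the ER. After rescaling, 9 genes of this list rose and 1, Tmed9, fell, with Tmed2 (-0.10) and Lman1 (-0.01) no longer passing.

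Of 12 genes listed for the branch of PERK, Atf4 and Ddit3, 1 rose and 8 fell, with a median log2 fold change of -0.33. Whether PERK acted on these genes was not tested. Chac1, which breaks down glutathione, rose by 0.86, whereas Nupr1 (-0.96), Trib3 (-0.62), Ddit3 (-0.47) and Sesn2 (-0.42) had the largest falls. Ddit3, which encodes CHOP, went from 20.5 ± 1.87 FPKM to 14.7 ± 0.352 FPKM (SD, n = 5). Atf4 was at a log2 fold change of -0.15, which did not pass. After rescaling to the same total 1 rose and 5 fell, and Nupr1, Trib3, Ddit3 and Sesn2 were among the 5. Of 12 cytosolic and mitochondrial chaperones, which answer other stresses, 0 rose and 10 fell, with a median of -0.34 and the largest falls in Dnaja1 (-0.91), Hspa1a (-0.88), Hspe1 (-0.55) and Hspa1b (-0.49), of which Hspa1a and Hspa1b are near-identical copies that share reads, and after rescaling 1 rose and 4 fell, with Hspa1b (-0.31) no longer passing. The median of the members, at -0.10, lay between those of these 2 lists and that of all genes tested. It was near the -0.08 of all genes that averaged 5 FPKM or more.

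**Figure D4:**
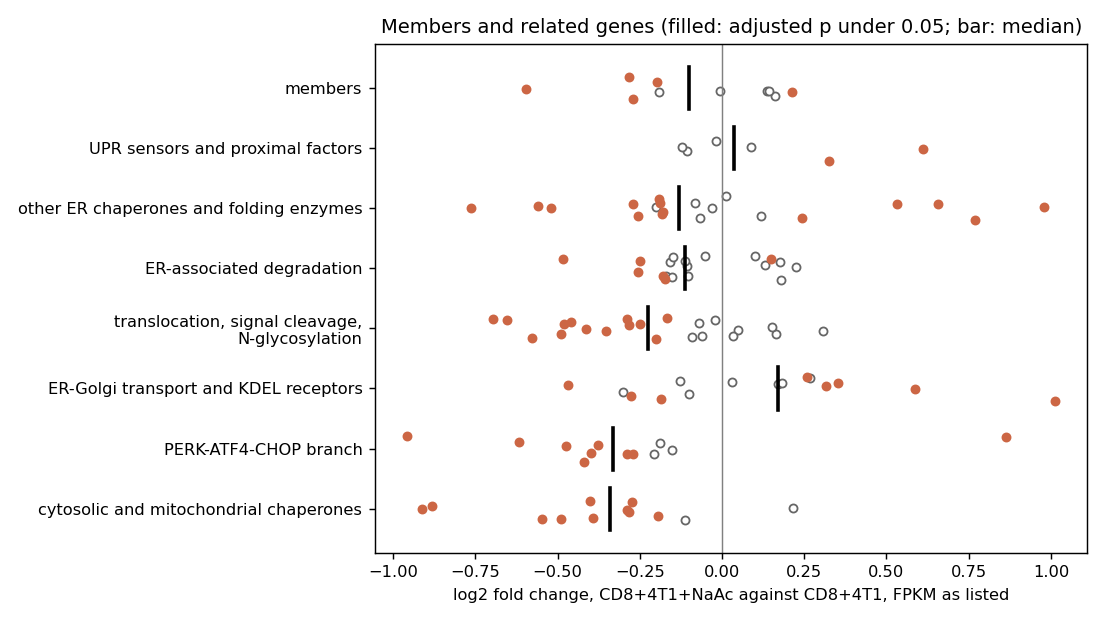
Log2 fold change of the members and of the related genes tested, CD8+4T1+NaAc against CD8+4T1, on the FPKM as listed. Each point is a gene, filled where the adjusted p was under 0.05, and bars are list medians. The genes listed for the PERK branch and the cytosolic and mitochondrial chaperones lie mostly below 0. The transport genes have the highest median of the lists.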

How the data were processed

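RNA of CD8+ T cells from 10 samples was sequenced (NEBNext Ultra libraries, NovaSeq). The authors deposited FPKM per gene and sample, with gene positions and lengths as other columns that the authors deposited beside them. The methods name StringTie, featureCounts and DESeq2, and the submitters' processing notes name fastp, HISAT2 2.0.5, StringTie 1.3.3b and featureCounts 1.5.0-p3. Genome build, annotation and strand setting are not given in the sources used here, and of 52073 genes shared with a GRCm38 annotation 1467 have the same start and end, so positions are given as listed.

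Multiplied by gene length, the FPKM of each sample were whole multiples of 1 smallest value, with a tolerance of 0.1, so that fragments could be recovered (16306447 to 18853726 per sample). FPKM are not counts, so the 15710 genes that averaged 0.5 FPKM or more were compared on log2(FPKM + 0.1) by limma (version 3.58.1, R 4.3.3), using a variance trend, robust moderation and Benjamini-Hochberg adjustment over all of them. Fold changes on this scale understate those of low genes. Ratios of members were compared by exact permutation tests with 252 permutations (scipy 1.17.1). Alternatives were other pseudocounts (1, 0.01), filters (none, 5 FPKM), scalings, sample weights, voom on the recovered fragments, a replicate block and leaving out samples. The limma fit was first tested on simulated data with known changes. The members and lists were chosen with earlier results of these data known. Named were all members, set genes of the pathway, up to 4 genes with the largest rise and fall in each list, and the 10 genes most like the members. Promoters came from RefSeq (GRCm38.p6).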

Additional observations from a re-analysis of the deposited data

Results flagged for a closer look

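Of 40 groups of 5 values checked (log2 FPKM of the members, their log2 ratios to Hspa5 and their summed FPKM), 2 held a sample far from the others, and chance gives about 2 at this limit (1 in 20). The log2 FPKM of Pdia6 in CD8+4T1+NaAc was highest in replicate 1, with a gap to the next sample of 0.759 of the whole range of the group, above the limit of 0.71. The log2 ratio of Pdia4 to Hspa5 in CD8+4T1 was lowest in replicate 4, with a gap of 0.754 of the range.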

How the results depend on the processing

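Calls of members depended on the scaling and on single samples. On the listed FPKM, 1 member rose and 4 fell. After rescaling to the same total, or scaling to the T cell markers, 4 rose and 1 fell. Of the settings chosen after seeing the data, rescaling with the replicate block gave 4 and 1. Rescaling without replicate 1 of both groups, also chosen then, gave 4 and 2, Manf and Pdia6, beside 5940 higher and 1833 lower of all 15710 genes. Without replicate 1 of both groups, 2 members rose and 5 fell, beside 3427 higher and 3554 lower of all 15710 genes tested. Sample weights also gave 2 and 5, with Hspa5 the added rise and Sdf2l1 the added fall in both settings. Voom on the recovered fragments gave 2 and 4. The replicate block gave 2 and 4, beside 2551 higher and 2848 lower of all 15710 genes. Without a filter on low values 0 rose and 4 fell. Leaving out 1 sample at a time gave 0 to 2 higher and 4 to 5 lower members and 3 to 5 differing ratios to Hspa5. Manf, Pdia6, Creld2 and Hsp90b1 passed in all 10 of these fits. Herpud1 no longer passed without replicate 3, 4 or 5 of CD8+4T1 or replicate 2 or 5 of CD8+4T1+NaAc, Pdia4 passed without replicate 5 of CD8+4T1, and Hspa5 and Sdf2l1 passed without replicate 1 of CD8+4T1+NaAc. Other pseudocounts, a filter at 5 FPKM, median-ratio scaling and limma without trend and robust moderation changed no call of a member. The counts of the related lists moved as well. For ER-associated degradation, 4 rose and 7 fell without replicate 1 of both groups, and 0 rose and 4 fell with the replicate block. For translocation, signal peptide cleavage and N-glycosylation, 3 rose and 13 fell without replicate 1 of both groups, and 9 rose and 9 fell when also rescaled.

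The estimate of Dnajb9 turned upward after rescaling (0.17), scaling to T cell markers (0.13), rescaling with the replicate block (0.17), rescaling without replicate 1 (0.301), leaving out replicate 1 of both groups (0.115), sample weights (0.086) and voom (0.00525), and lay between -0.0786 and 0.117 when 1 sample was left out. That of Hsp90b1 was 0.00858 after rescaling without replicate 1. With 1 sample left out, the log2 difference of the ratio to Hspa5 ranged from -0.106 to 0.0459 for Xbp1 and from -0.0853 to 0.0344 for Pdia4, with the upward values without replicate 2 or replicate 4 of CD8+4T1+NaAc. The cause of these turns was not tested. Same-numbered samples had correlations of deviations between -0.03 and 0.07, which showed no clear pairing by number. A weak pairing could be missed in this way, and the sample titles do not say whether same-numbered samples belong together. With the replicate block, 6 members passed, beside 5399 of the 15710 genes tested, Pdia4 being gained (limma adjusted p = 0.0448). The exact test of the ratios to Hspa5 over within-number differences called 0, since its smallest p is 0.0625. With Hsp90b1 as the reference 5 ratios differed.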
